A study of Arabidopsis thaliana with 12 samples.

Results

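Genes of thiol-based peroxide removal and ascorbate synthesis were followed in wild-type (WT) and toc132 mutant Arabidopsis thaliana, both of ecotype Columbia 0. They are the sulfiredoxin gene SRX (AT1G31170), the type II peroxiredoxin E gene AT3G52960 and GLDH (AT3G47930), each read from 1 probe, and are 3 of the 691 genes that the array names by a probe of their own. The toc132 mutation impairs a chloroplast receptor for imported preproteins, and the sources used here give no allele, organ, age or growth conditions. Total RNA of 6 WT and 6 toc132 samples, numbered 1 to 6 in each group, had been measured on an expression array of 3439 probes with 1 intensity per probe and sample, on an arbitrary scale that reached 100 at most. No label states whether the samples of a group are separate plants, so each SD given is the spread of these samples and may be technical. Each SE given is from a fit that takes all samples as independent, which they may not be. The genes were chosen by their log2 differences between toc132 and WT in these same samples: SRX for its large difference, GLDH because it passed that contrast with the sample number as a block, and AT3G52960 to set a peroxiredoxin beside sulfiredoxin. Their differences between toc132 and WT are therefore a description, with no test.

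Peroxiredoxins are abundant thiol peroxidases that reduce hydrogen peroxide and organic peroxides through a reactive cysteine. In excess peroxide that cysteine can be overoxidised to a sulfinic acid and the enzyme stops working. Sulfiredoxin reverses this for the typical peroxiredoxins with paired cysteines, in an ATP-dependent reaction, and in Arabidopsis it is found in plastids and mitochondria. Type II peroxiredoxin E is a stromal enzyme of the chloroplast whose precursor is made in the cytosol and imported. GLDH, galactono-lactone dehydrogenase of the inner mitochondrial membrane, makes ascorbate in the last step of its synthesis, and ascorbate is in turn the reductant of the ascorbate peroxidases.

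Some samples stood close to one another in a way that bears on all values below. Samples with consecutive numbers (1 and 2, 3 and 4, 5 and 6) of a group were close replicates: over the 2907 probes above 0 in all samples, log2 intensities within such a set had a Pearson's r of 0.901 to 0.975 (across probes, not replicates). WT samples 1 and 2 stood nearer to toc132 than to the rest of WT, with a median r of 0.909, 0.922 and 0.825 with the 3 toc132 sets against 0.707 and 0.539 with WT 3 and 4 and WT 5 and 6. Results are therefore given by number set and with and without WT 1 and 2. TOC132 itself was not analysed here, so the labels could not be checked on the mutated gene. Summed intensity was 3536 to 3857 per sample, and the median intensity per probe ran from 0.354 in WT 2 to 0.616 in toc132 2. Intensities were put on the log2 scale and quantile normalised, which gives each sample the same distribution. Values called normalised are on that scale, and the number of arrays limits their precision. In bulk RNA, fewer cells of a type and less RNA per cell cannot be told apart.

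SRX intensity was lower in toc132 than in WT samples 3 to 6, but WT samples 1 and 2 were as low as toc132. As deposited, it was 0.204, 0.174, 0.848, 0.935, 0.571 and 0.609 in WT 1 to 6. In toc132 1 to 6 it was 0.410, 0.434, 0.134, 0.161, 0.120 and 0.0993. WT 3 to 6 were all higher than each toc132 sample, as they were for 15.7% of the 2907 complete probes, whereas WT 1 and 2 lay between toc132 4 and toc132 1, so the 6 WT and 6 toc132 samples overlapped. After normalisation the group means were -1.08 ± 0.80 (log2, SD, n = 6) in WT and -2.47 ± 0.60 (log2, SD, n = 6) in toc132. The SD in WT came from the gap between samples 1 and 2 and the others, since samples of a set differed by only 0.08 to 0.23 (log2) there.

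The SRX difference turned direction between number sets. Toc132 over WT was 1.26-fold in set 1 and 2, 0.235-fold in set 3 and 4 and 0.188-fold in set 5 and 6 on normalised values. SRX was dim in toc132 3 to 6, above only 14.6% to 22.0% of all probes in the same sample. An offset of 0.1 before log2 gave 0.342-fold in set 3 and 4 and 0.307-fold in set 5 and 6. The lower values of numbers 3 to 6 were seen under each of the 5 scalings, with log2 differences from -1.55 to -2.60, and a log2 difference of at least 1 downward in both of these sets was found for 6.6% of the complete probes. For numbers 1 and 2 the log2 difference stayed above 0, at 0.33 with quantile normalisation, 0.45 with median centring, 0.23 with cyclic loess, 0.17 with an offset of 0.1 before log2 and 1.16 as deposited. Higher values in toc132 for numbers 1 and 2 with lower ones in both other sets were the pattern of 20.4% of the 2907 complete probes. Over all 6 numbers the fit gave a log2 difference of -1.39 ± 0.38 (SE), or 0.381-fold of WT. That SE does not allow for the closeness of samples within a set. Without WT 1 and 2, the toc132 mean stood at 0.268-fold of the mean of WT 3 to 6 in the same normalised values, a larger gap by construction because those samples resemble toc132.

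**Figure D1:**
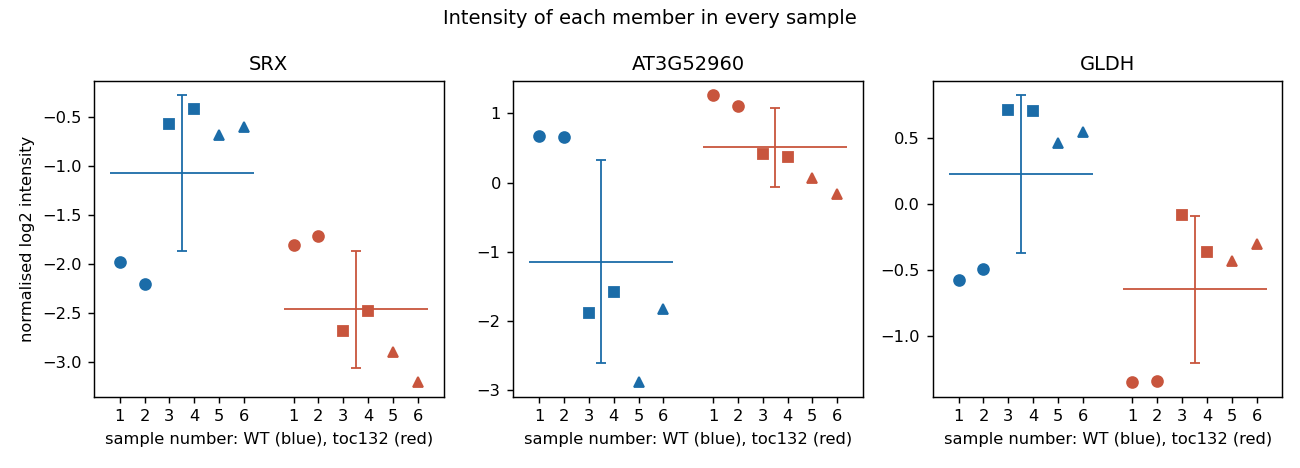
Normalised log2 intensity of SRX, AT3G52960 and GLDH in each sample, WT in blue and toc132 in red, with circles, squares and triangles for numbers 1 and 2, 3 and 4, and 5 and 6; lines and bars are the group mean and SD (n = 6). WT 1 and 2 stand with the toc132 samples for all 3 genes, and WT 3 to 6 stand apart.

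AT3G52960, the chloroplast peroxiredoxin, was higher in toc132 than in WT 3 to 6, the opposite of SRX. Its deposited intensity was 1.38, 1.37, 0.320, 0.401, 0.113 and 0.249 in WT 1 to 6. In toc132 1 to 6 it was 2.28, 2.13, 1.19, 1.14, 0.992 and 0.842. WT 3 to 6 were all lower than each toc132 sample, as for 16% of the complete probes, and WT 1 and 2 fell inside the toc132 range. The WT values spanned 11.7-fold from highest to lowest after normalisation and the toc132 values 2.68-fold. WT 5 and 6 differed by 1.05 (log2), where the median probe differed by 0.21 between those samples, and the number 6 samples alone gave a smaller toc132 difference (1.67, log2) than the number 5 samples (2.95).

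Toc132 over WT for AT3G52960 was 1.43-fold in numbers 1 and 2, 4.34-fold in 3 and 4 and 4.95-fold in 5 and 6. On normalised values each of the 6 numbers was higher in toc132, by 0.45 to 2.95 (log2), as were 13.3% of the 2907 complete probes, and each set was higher by at least 0.5, as in 2.82% of them. That cut lies just under the 0.52 of numbers 1 and 2. Median centring, cyclic loess and the offset did not reach the cut there. For numbers 1 and 2 the direction was not firm: it was 0.52 with quantile normalisation, 0.69 as deposited and 0.12 with cyclic loess, and it turned to -0.03 with median centring. Those of numbers 3 to 6 kept their direction under each scaling, from 1.70 to 2.44 (log2), and 8.88% of the complete probes were higher by at least 1 in both of these sets on normalised values. Over all samples the fit gave 1.65 ± 0.58 (log2, SE), or 3.14-fold of WT. Against WT 3 to 6 alone the toc132 mean was 5.86-fold higher.

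GLDH was lower in toc132 by nearly the same amount in each number set. Deposited intensity was 0.556, 0.589, 1.93, 1.87, 1.46 and 1.51 in WT 1 to 6. In toc132 1 to 6 it was 0.544, 0.535, 0.819, 0.667, 0.699 and 0.762. WT 3 to 6 were again apart from all toc132 samples, here above them as for 15.7% of the complete probes. WT 1 and 2 were inside the toc132 range. On normalised values the number sets gave log2 differences of -0.82, -0.93 and -0.87, and single numbers ran from -0.78 to -1.07. All 6 numbers were lower in toc132, a pattern of 12.6% of the 2907 complete probes. A log2 difference of at least 0.5 downward in each of the 3 sets was seen for 3.51% of them, and GLDH was one.

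That evenness depended on the scaling. In the values as deposited, numbers 1 and 2 gave GLDH a log2 difference of -0.08, numbers 3 and 4 gave -1.36 and numbers 5 and 6 gave -1.02. Median centring gave -0.80, -0.81 and -1.11 in the same order, and cyclic loess -0.59, -0.87 and -1.21. The toc132 1 and 2 samples had the highest medians of all probes, 0.609 and 0.616, so that equal deposited GLDH intensities became unequal after scaling. Every scaling left all 6 numbers lower in toc132. The fit over all samples gave -0.87 ± 0.33 (log2, SE), or 0.546-fold of WT. Against WT 3 to 6 alone the toc132 mean was 0.419-fold on normalised values.

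**Figure D2:**
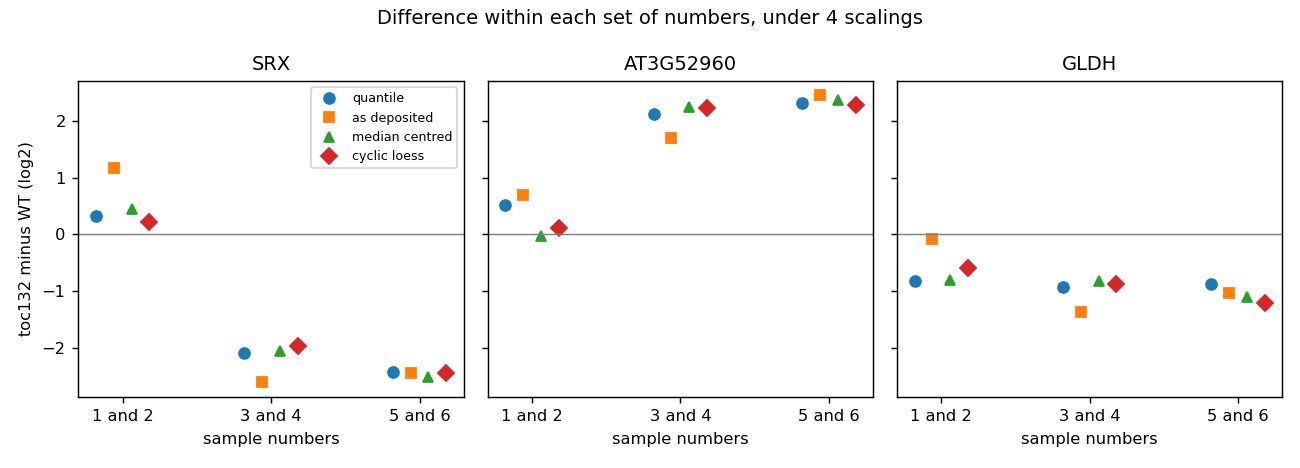
Log2 difference, toc132 minus WT, of each gene within sample numbers 1 and 2, 3 and 4, and 5 and 6, each point a mean of 2 samples minus a mean of 2 samples, under 4 scalings. Numbers 3 and 4 share their direction with 5 and 6 in each gene under all 4 scalings, while numbers 1 and 2 lie above 0 for SRX, run from -0.03 to 0.69 for AT3G52960, and for GLDH fall to near 0 only as deposited.

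In the limma fit over all 3190 tested probes, 0 probes passed a Benjamini-Hochberg adjusted p of 0.05, which is 0% of them, with 807 at an unadjusted p under 0.05. The 3 genes were therefore not among any called probes there. With the sample number as a block limma called 21 probes, 0.658% of those tested, and GLDH was one of them, as is known from how it was chosen. Without WT 1 and 2, limma called 1131 probes (35.6% of 3173), a count that rises by construction since these samples resemble toc132. The gap between WT 1 and 2 and the rest of WT was at least 1 (log2) for all 3 genes, as for 36.1% of the complete probes. It was -1.53 for SRX, 2.70 for AT3G52960 and -1.14 for GLDH, and in each gene the mean of WT 1 and 2 lay within 0.37 (log2) of the toc132 mean.

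Sulfiredoxin and the peroxiredoxin were set against each other by their ratio within a sample, in which a factor that scales a whole sample cancels. Quantile normalisation is not a single factor and does not cancel. In toc132 1 the log2 ratio of SRX to AT3G52960 was -3.06 normalised and -2.48 as deposited. The repair described above is that of typical peroxiredoxins, and whether sulfiredoxin acts on type II peroxiredoxin E was not tested. The log2 ratio of SRX to AT3G52960 was -2.65, -2.86, 1.31, 1.16, 2.20 and 1.23 in WT 1 to 6 on normalised values. In toc132 1 to 6 it was -3.06, -2.82, -3.09, -2.85, -2.96 and -3.05. The samples thus fell into 4 with a ratio above 0, WT 3 to 6, and 8 far below it. Since the probes differ in sequence, the sign of the ratio says nothing of which transcript was more abundant, and only its change between samples can be read. In this ratio toc132 minus WT was -4.21 (log2) in set 3 and 4 and -4.72 in set 5 and 6, but -0.19 in set 1 and 2, where the deposited values gave 0.48.

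Across the toc132 samples SRX and AT3G52960 were high and low together. SRX spanned 1.49 (log2) and AT3G52960 1.42 among the 6 toc132 samples, both highest in numbers 1 and 2 and lowest in toc132 6, while their ratio spanned only 0.27. Of the 2906 other complete probes, 0.172% kept a ratio to SRX within that span in toc132, AT3G52960 included. The span was 0.85 in the values as deposited, which 2.82% of the probes matched, and this comparison was chosen after the values were seen. In WT the order was opposite: numbers 1 and 2 were lowest for SRX and highest for AT3G52960.

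A single correlation over all samples did not show these patterns. The 12 samples are 6 sets of 2 close samples, so it was taken over the 6 set means as a description. Pearson's r of SRX and AT3G52960 was -0.73 and Spearman's rho -0.37. It rests on WT 3 and 4 and WT 5 and 6: without these 2 set means r was 0.98 over the 4 left. AT3G52960 and GLDH were opposed with r = -0.92 and rho = -0.89 over the 6 set means, and r was -0.86 without the same 2. SRX and GLDH had r = 0.59 and rho = 0.49, which turned to -0.79 without them. Set means share the scaling of their samples, and r across all 12 samples had many equals. For SRX, 12.9% of the complete probes had an r at least as low as that with AT3G52960, and 19.9% an r at least as high as that with GLDH. For AT3G52960, 3.23% had an r at least as low as that with GLDH.

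In both ratios that involve GLDH, toc132 1 and 2 stood apart from the other toc132 samples, whose sets 3 and 4 and 5 and 6 overlapped. The log2 ratio of SRX to GLDH was -1.71 to -1.12 in all WT samples. WT 1 and 2 were the lowest of these, at -1.40 and -1.71, and WT 3 to 6 lay at -1.28 to -1.12. In toc132 it was -0.45 and -0.37 for numbers 1 and 2, above every WT sample, and -2.12 to -2.91 for numbers 3 to 6, below every WT sample. Toc132 minus WT was therefore 1.15 (log2) in set 1 and 2, -1.16 in set 3 and 4 and -1.54 in set 5 and 6, and 1.25, -1.24 and -1.41 as deposited. GLDH over AT3G52960 was lower in toc132 in each set, by -1.34, -3.05 and -3.18 (log2), and by -0.77, -3.06 and -3.47 as deposited.

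**Figure D3:**
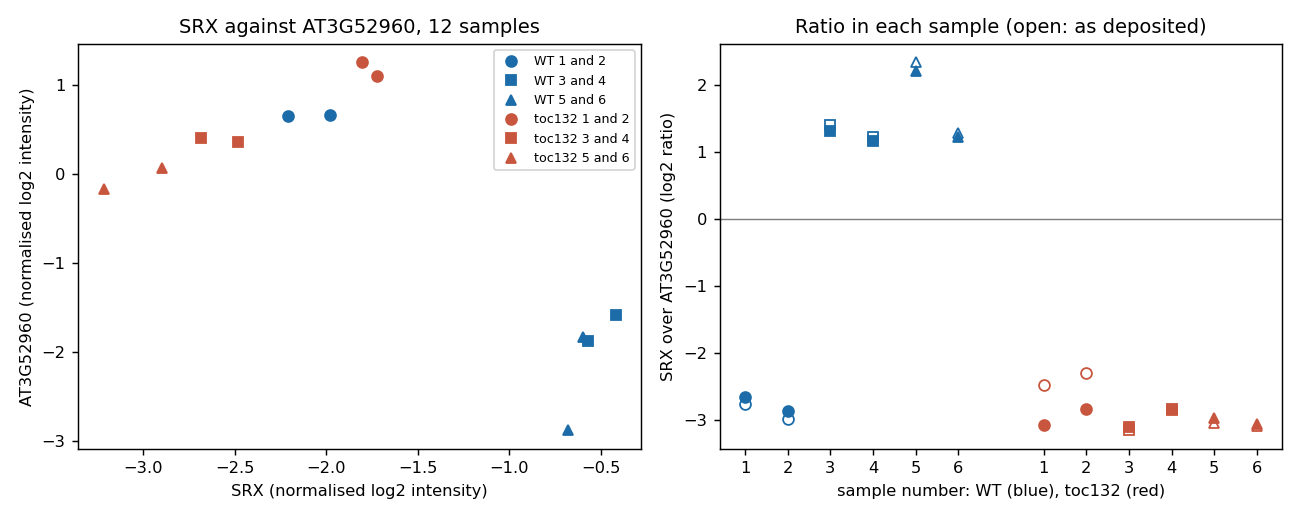
Left, SRX against AT3G52960 as normalised log2 intensity in the 12 samples; right, their log2 ratio in each sample, filled for normalised and open for deposited values. WT 3 to 6 lie between 1.16 and 2.20 on the normalised ratio, and WT 1 and 2 with all toc132 samples lie between -3.09 and -2.65.

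The wider antioxidant network was thinly covered. Of 85 genes in 6 lists (peroxiredoxins and sulfiredoxin, thioredoxins and their reductases, ascorbate synthesis, the ascorbate and glutathione cycle, superoxide dismutases with catalases and glutathione peroxidases, and glutaredoxins with methionine sulfoxide reductases), 5 had a probe naming them alone, the 3 genes above and 2 thioredoxin reductase genes. Another 9 were found only on probes that name several genes and were not used. Of the 10 genes for peroxiredoxins and sulfiredoxin 2 were measured, of the 17 for thioredoxins and reductases 2, of the 10 for ascorbate synthesis 1, and of the other 3 lists 0. Of the 5 measured genes 1 was higher and 4 were lower in toc132, where 1465 of all 3190 tested probes were higher and 1725 lower. In limma 0 of the 5 passed, and their median log2 difference was -0.75 against -0.06 over all tested probes. Since 3 of the 5 were picked for their pattern, that count and that median are a description only.

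NTRC (AT2G41680), the NADPH-dependent thioredoxin reductase of plastids that reduces the typical peroxiredoxins there, did not pass the test. Its deposited intensity was 0.433, 0.359, 1.14, 1.04, 0.416 and 0.578 in WT 1 to 6. It was 0.552, 0.688, 0.452, 0.545, 0.664 and 0.715 in toc132 1 to 6. The groups overlapped. The log2 difference was -0.09 ± 0.25 (SE, limma adjusted p = 0.827), with -0.09, -0.62 and 0.44 for the 3 number sets on normalised values. As deposited the sets gave 0.64, -1.14 and 0.49, so numbers 1 and 2 turned direction with the scaling, and the sets did not share a direction under either. Without WT 1 and 2 the log2 difference was -0.26 (limma adjusted p = 0.453).

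AT2G04700 encodes the catalytic subunit of ferredoxin-thioredoxin reductase, which passes electrons from photosynthesis to plastid thioredoxins. Its deposited intensity was 0.337, 0.422, 0.912, 0.950, 1.43 and 1.77 in WT 1 to 6. It was 0.498, 0.446, 0.458, 0.392, 0.575 and 0.663 in toc132 1 to 6. WT 3 to 6 were above all 6 toc132 samples, as for 15.7% of the 2907 complete probes. WT 1 and 2 were again the lowest WT samples. As deposited, WT 1 was below all 6 toc132 samples and WT 2 below 5 of them, whereas after normalisation both lay inside the toc132 range, above toc132 1 and 2. The log2 difference was -0.75 ± 0.36 (SE), which is 0.596-fold of WT (limma adjusted p = 0.208), and -0.45, -0.59 and -1.21 for the number sets on normalised values. The direction of numbers 1 and 2 turned with the scaling, at 0.32 (log2) as deposited, while median centring, cyclic loess and the offset left it below 0. Without WT 1 and 2 the limma adjusted p was 0.0178 with a log2 difference of -1.14, in a fit in which 35.6% of all probes passed.

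Genes with a profile like that of each member were looked for among 487 other probes that name a single gene, are above 0 in all samples and are not among the dimmest 25%. Likeness was Pearson's r of normalised values over the 12 samples, and the log2 differences of these genes are on normalised values too. Such likeness is a description, since all profiles share the same samples and the position of WT 3 to 6. Nearest to SRX were AT2G43990 (r = 0.91), AT2G14660 (r = 0.91) and CHL (r = 0.91), the last a lipocalin of the chloroplast. Each had toc132 above WT for numbers 1 and 2 (log2 differences of 0.38, 0.61 and 0.42) and below it in both other sets. AT3G44570 had the lowest r with SRX, -0.94.

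Nearest to AT3G52960 were AT2G30100 (r = 0.98), ATATH8 (r = 0.97) and AT3G04210 (r = 0.97). For ATATH8, of a family of ABC1-like proteins, the log2 differences were 0.29, 2.40 and 2.90 in the 3 number sets, larger in numbers 3 to 6 as in the peroxiredoxin. AT3G04210 had -0.17, 1.08 and 1.16, so it did not share the direction of numbers 1 and 2. The lowest r with AT3G52960 was -0.98, for AT2G28660.

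Nearest to GLDH were AT3G54210 (r = 0.95), a plastid ribosomal protein gene of the L17 type, AT4G25290 (r = 0.94) and AT4G01810 (r = 0.93). On normalised values the log2 differences of AT3G54210 were even over the number sets as those of GLDH were, at -0.48, -0.46 and -0.53. For GLDH that evenness depended on the scaling, and other scalings were not examined for its nearest genes. Those of AT4G25290 were -0.53, -0.37 and -0.47, and those of AT4G01810 were less even, at -0.35, -1.32 and -0.998. AT4G09040 had the lowest r, -0.96.

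**Figure D4:**
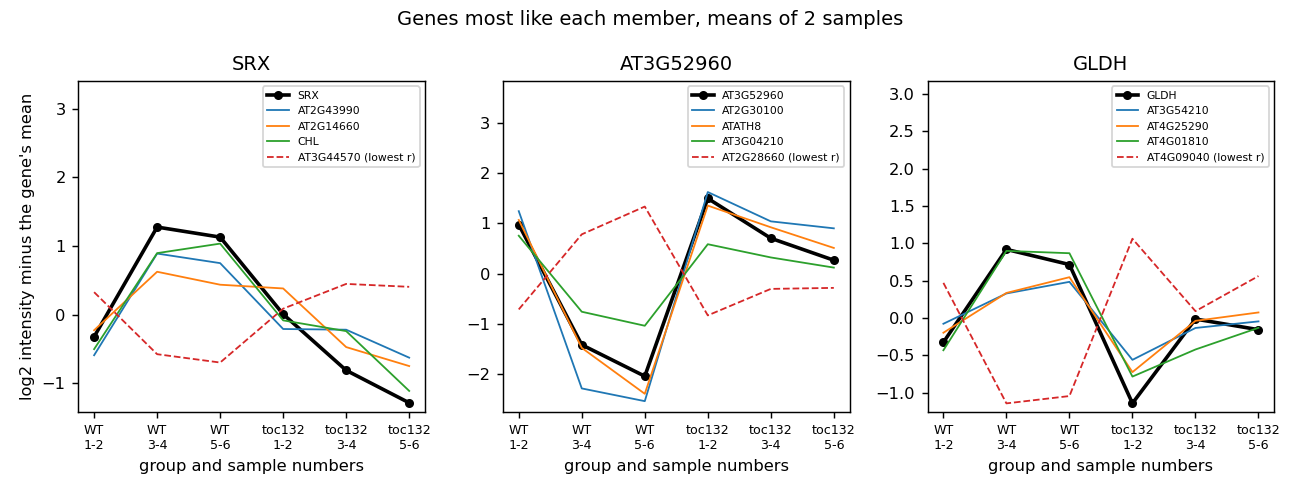
Means of the 2 samples of each number set, as normalised log2 intensity minus the gene's mean over the 6 set means, for each member (black), its 3 nearest genes (solid) and the gene with the lowest r (dashed). The nearest genes of AT3G52960 are lowest in WT 3 to 6, and those of GLDH are lowest in toc132 1 and 2.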

How the data were processed

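The deposited values were read, from their range and skew, as linear intensity values per probe, with a highest value per sample between 53.0 and 100. The sources used here do not give the array type, the scaling or the background correction. An exact 0 therefore has no known meaning, and folds depend on any background removed earlier. Groups and sample numbers came from the titles. Genes were taken from GEO's platform annotation and matched to RefSeq names (assembly TAIR10.1) for 690 of 692 probes that name 1 gene; no coordinates are given.

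Values of 0 were set to missing; log2 values were quantile normalised between samples. Probes with at least 4 values per group were fitted with limma 3.58.1 in R 4.3.3 (lmFit, eBayes, Benjamini-Hochberg over all 3190 probes). The code of the fit was tried on simulated independent samples. Those lack the close sets seen here, so the trial does not bear on the fit to these data. Figures used matplotlib 3.10.9 in Python 3.11.15.

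The replicate number was looked at as a pairing: deviations of same-numbered samples from their group means correlated at 0.15 to 0.44 over 2907 probes. For 11 of the 12 samples the highest such r with the other group was with the sample of the same number. Samples of a set are close too, and whether same-numbered samples were pairs beyond shared sets was not tested. Fits are without the sample number as a block unless the block is named. The genes, lists and alternatives were chosen with earlier results of these data known. Named are the 3 genes, each list gene with a probe of its own, and per gene the 3 probes with the highest and the 1 with the lowest r.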

Additional observations from a re-analysis of the deposited data

How the results depend on the processing

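Across 26 alternatives each, the 3 genes kept the direction of their log2 difference over all samples. SRX ran from -2.34 to -0.87, AT3G52960 from 1.28 to 2.53 and GLDH from -1.31 to -0.75, and the genes were picked for this contrast, so a kept direction was likely beforehand. The value that moved by more than the replicate SD was SRX without numbers 1 and 2 of both groups, at -2.34 against -1.39. Leaving out each sample gave -1.62 to -1.24 for SRX, 1.29 to 2.005 for AT3G52960, -1.03 to -0.75 for GLDH, -0.77 to -0.69 for r of SRX and AT3G52960 over the set means, and 0 to 422 passing probes. That r was -0.73, and it became -0.56 in the values as deposited, -0.93 without numbers 1 and 2 of both groups and -0.61 without numbers 3 and 4 of both groups; the cause was not tested. The count of 0 passing probes in limma became 2 with an offset of 0.1 before log2, 1 without the dimmest 25% of probes, 21 with the replicate block, 387 without WT 1, 422 without WT 2, 1131 without WT 1 and 2, 829 without numbers 1 and 2 of both groups and 1162 with array weights. It stayed 0 under the other 18 alternatives, among them number sets as a random block and number sets averaged. The replicate block changed no call of NTRC or AT2G04700. What dim signal limits could not be judged, since no background values were used.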
